A study of Homo sapiens with 24 samples.

Results

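The cytosolic ribosomal protein genes were taken from the array annotation by their symbols (RPL or RPS and a number, with the letters A, X or L allowed, and the acidic stalk proteins RPLP1 and RPLP2). The rule found 75 genes among 20045 with a symbol of their own, and 72 of them had a probe over background (detection p under 0.05) in at least 3 of the 24 arrays, of 13283 genes measured in all. Each gene is represented by its probe with the highest mean signal, and 26 of the 72 encode proteins of the small (40S) and 46 of the large (60S) ribosomal subunit. RPL10, RPL3L and RPL22L1 were left out because their probes did not reach this detection.

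Expression was measured on 24 Illumina HumanHT-12 arrays from 2 human multiple myeloma lines, in 8 groups of 3 arrays. MM1S is sensitive to glucocorticoids, and MM1R is a steroid resistant subclone obtained from MM1S under long exposure to dexamethasone (Dex), so the line comparison rests on 1 such subclone. In the Dex experiment each line was left untreated or received 1 µM Dex for 72 h. In the transfection experiment each line was electroporated with a mock control or with a synthetic mimetic of mir-150-5p at 150 nM and also taken at 72 h, so that all 12 arrays of this experiment come from electroporated cells. The replicates come from 3 independent experiments, and each array holds bulk RNA, in which fewer living cells and less RNA per cell cannot be told apart. All 7 plasma cell markers of a fixed list were over background in all 24 arrays, against 0 of 3 T cell, 0 of 3 monocyte, 0 of 3 epithelial and 1 of 2 erythroid markers. By the rule used for the members, over background in at least 3 arrays, 2 T cell, 3 monocyte, 1 epithelial and 1 erythroid markers passed.

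Ribosomal proteins and ribosomal RNA form the 2 subunits of the ribosome, which reads mRNA in the 40S and joins amino acids in the 60S subunit. Plasma cells and myeloma cells make large amounts of secreted protein and depend on ribosomes for it. Most ribosomal protein mRNAs begin with a C followed by a run of pyrimidines, the 5′ terminal oligopyrimidine (TOP) tract, through which the kinase mTOR and the protein LARP1 set their translation and stability together. A few family members have a paralog elsewhere in the genome (RPL39 and RPL39L, RPS27 and RPS27L, RPL26 and RPL26L1), and some proteins act outside the ribosome, such as RPL5 and RPL11, which hold MDM2 as part of the 5S particle.

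The ribosomal protein genes lay at the top of the signal range. Before normalization 47 of the 72 probes had a mean log2 signal above 13.01, the 99th percentile of the probe means, and are called bright below. The mean over arrays was highest for RPS12 (14.92), RPL41 (14.78) and RPL27A (14.73), and lowest for RPL28 (7.72), RPL37 (8.15) and RPL10L (7.03), a retrogene of RPL10 that was over background in 5 arrays. These are signals of different probes and give no order of transcript amounts. The highest reading of a member was 15.14 and that of any probe 15.21. After quantile normalization the median of the 72 genes was 14.03, against 7.99 for all genes measured.

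**Figure D1:**
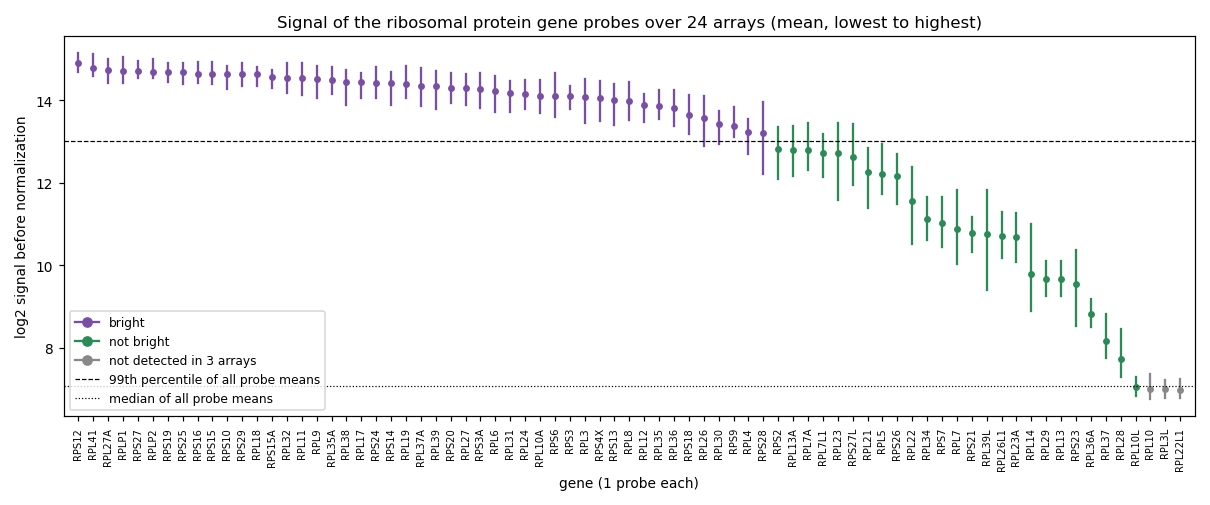
Mean log2 signal before normalization of 75 ribosomal protein genes (points), with the lowest to highest of 24 arrays (lines); the dashed line is the 99th percentile of the probe means and the dotted line the median. The 47 bright probes form a plateau between 13.20 and 14.92, and the other genes spread down to background.

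Bright members varied less than the others. The 8 group means of a gene spanned a median of 0.28 log2 units for the 47 bright members and 0.87 for the other 25, and the SD within groups had a median of 0.094 and 0.18. For comparison, 171 bright genes outside the family had a median span of 0.50 and a median SD of 0.13, and all genes outside it had a median span of 0.44. Of the 72 members, 50 had group means within 0.5 log2 units of each other and 11 spanned more than 1 unit, of which none was bright. Over the 72 members the span and the mean signal had a Spearman rho of -0.77, a description across genes that share arrays and normalization. The part that limited range at the top of the scanner plays in this was not tested.

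**Figure D2:**
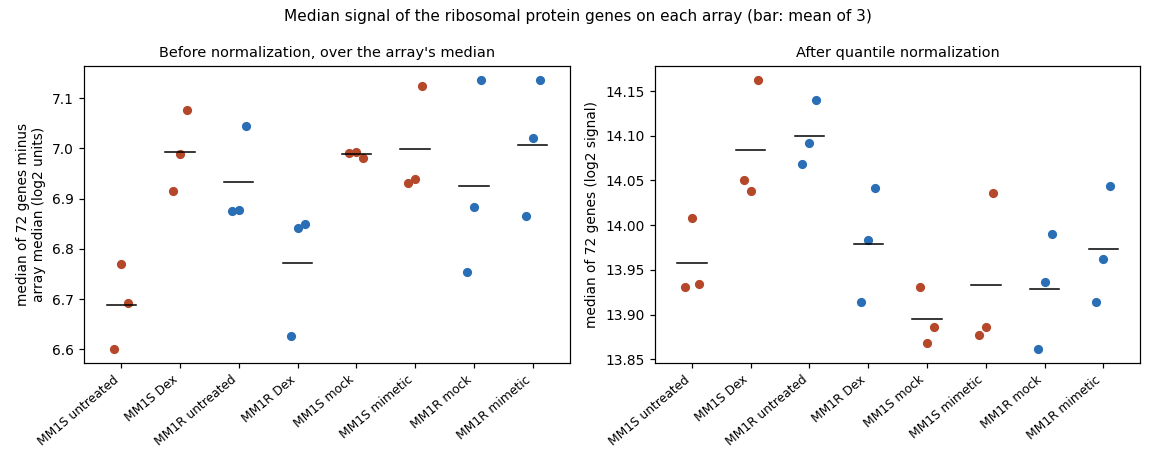
Median log2 signal of the 72 genes on each array, as points by replicate from left to right with the mean of 3 as a bar. Left, before normalization and over the array's own median, where MM1S untreated is lowest at 6.69. Right, after quantile normalization, where the group means lie between 13.90 and 14.10.

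As a group, the family's median signal shifted between some groups and overlapped between others. Over each array's own median, before normalization, it was lowest in untreated MM1S cells, with 6.60, 6.77 and 6.69 (mean 6.69 ± 0.085, SD, n = 3), and read 6.91, 6.99 and 7.08 in Dex treated MM1S cells (6.99 ± 0.081). These 2 groups did not overlap. In MM1R cells it was 6.88, 6.88 and 7.04 untreated (6.93 ± 0.097) and 6.63, 6.84 and 6.85 with Dex (6.77 ± 0.13), again without overlap and in the other direction. The mock (6.99 ± 0.0064) and mimetic (6.998 ± 0.11) groups of MM1S overlapped, as did those of MM1R (6.92 ± 0.19 and 7.01 ± 0.14). After quantile normalization the same medians were 13.96 ± 0.043 and 14.08 ± 0.068 in untreated and Dex treated MM1S cells, and 14.10 ± 0.037 and 13.98 ± 0.064 in MM1R cells. Quantile normalization gives every array the same distribution and so takes out part of any shift that many of the brightest probes share.

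The sequence around the annotated start shows what the members share beyond their names. RefSeq promoters (GRCh38.p14) were matched for 63 of the 75 genes. A C at the start followed by at least 4 more C or T bases, a definition chosen after the sequences were seen, was found at 1 or more annotated starts of 44 of the 63 (69.8%), against 4.99% of 27242 other genes. The windows below run from 15 bases before the start to 15 bases from it on, 5′ to 3′, with the tract in capitals. They are shown for members whose signal is described further on, first those with the tract.
RPS27 (chr1:153990747-153990776, plus strand): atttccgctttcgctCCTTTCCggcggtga
RPL26 (chr17:8383179-8383208, minus strand): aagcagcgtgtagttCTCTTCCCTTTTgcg
RPS23 (chr5:82278340-82278369, minus strand): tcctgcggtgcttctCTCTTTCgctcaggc
RPL13A (chr19:49487593-49487622, plus strand): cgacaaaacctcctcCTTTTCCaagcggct
RPL22 (chr1:6199581-6199610, minus strand): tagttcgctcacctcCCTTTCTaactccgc
RPL21 (chr13:27251543-27251572, plus strand): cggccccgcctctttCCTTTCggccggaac
RPL36A (chrX:101390996-101391025, plus strand): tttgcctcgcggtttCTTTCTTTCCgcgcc
RPS21 (chr20:62387088-62387117, plus strand): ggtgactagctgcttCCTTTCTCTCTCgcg
RPL29 (chr3:51995881-51995910, minus strand): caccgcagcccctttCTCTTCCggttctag
RPL34 (chr4:108620561-108620590, plus strand): aaaggcttttttcttCCTCTTCCggggacg
The paralogs RPS27L, RPL26L1 and RPL7L1 and, at its annotated start, RPS7 had no such tract.
RPS27L (chr15:63157463-63157492, minus strand): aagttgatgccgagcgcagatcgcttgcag
RPL26L1 (chr5:172958714-172958743, plus strand): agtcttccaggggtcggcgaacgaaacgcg
RPL7L1 (chr6:42879601-42879630, plus strand): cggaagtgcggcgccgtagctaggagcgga
RPS7 (chr2:3575245-3575274, plus strand): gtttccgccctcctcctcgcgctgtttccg
RPS27 and RPL26 carry the tract that their paralogs lack in these windows. An annotated start can lie a few bases from the start a cell uses. In RPS7 the run of C and T crosses the annotated start, with 3 of its bases from the start on. In the 300 bases from 250 before the start, CCGGAAG (a core bound by GABP and other ETS factors), read on both strands, was present in 23 of the 63 genes (36.5%) and 12.1% of the others, and AAGATGGC (YY1), read on both strands, in 7 (11.1%) and 3.51%. A match describes letters, not binding.

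Dex in MM1S cells was the comparison that asks what the steroid does where its receptor is present. RPL39L had the largest change among the members and fell 2.54-fold. In all, 11 of the 71 members tested rose and 4 fell (limma, Benjamini-Hochberg adjusted p under 0.05 over all probes). Over all 11559 genes 14.3% rose and 13.5% fell, against 15.5% and 5.63% of the members, so the share that rose was near the background. The median log2 change of the members was 0.098 and that of all genes 0.014. Above 0 were 57 of 71 members and 6113 of 11559 genes, a description across genes that share arrays and normalization. RPL39L was the 1 member past 2-fold.

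RPL39L, the paralog of the core 60S protein RPL39 known mainly from testis and tumour cells, had log2 signals of 11.03, 11.10 and 10.87 in untreated and 9.47, 9.66 and 9.83 in Dex treated MM1S cells. The groups were more than 1 unit apart. The log2 change was -1.35 ± 0.12 (SE; 95% interval -1.60 to -1.09; adjusted p = 7.2e-08, limma), a 2.54-fold fall, and its second probe read -1.30 (adjusted p = 1.8e-06). In MM1R cells RPL39L read 11.16, 10.93 and 10.92 untreated and 10.70, 11.04 and 11.05 with Dex. Those groups overlapped, with a change of -0.069 ± 0.12, and the 2 Dex effects differed by -1.28 ± 0.17 (adjusted p = 2.9e-05, limma). Its parent RPL39, a bright member where RPL39L is not, read 0.11 ± 0.096 in MM1S cells (adjusted p = 0.50, limma).

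**Figure D3:**
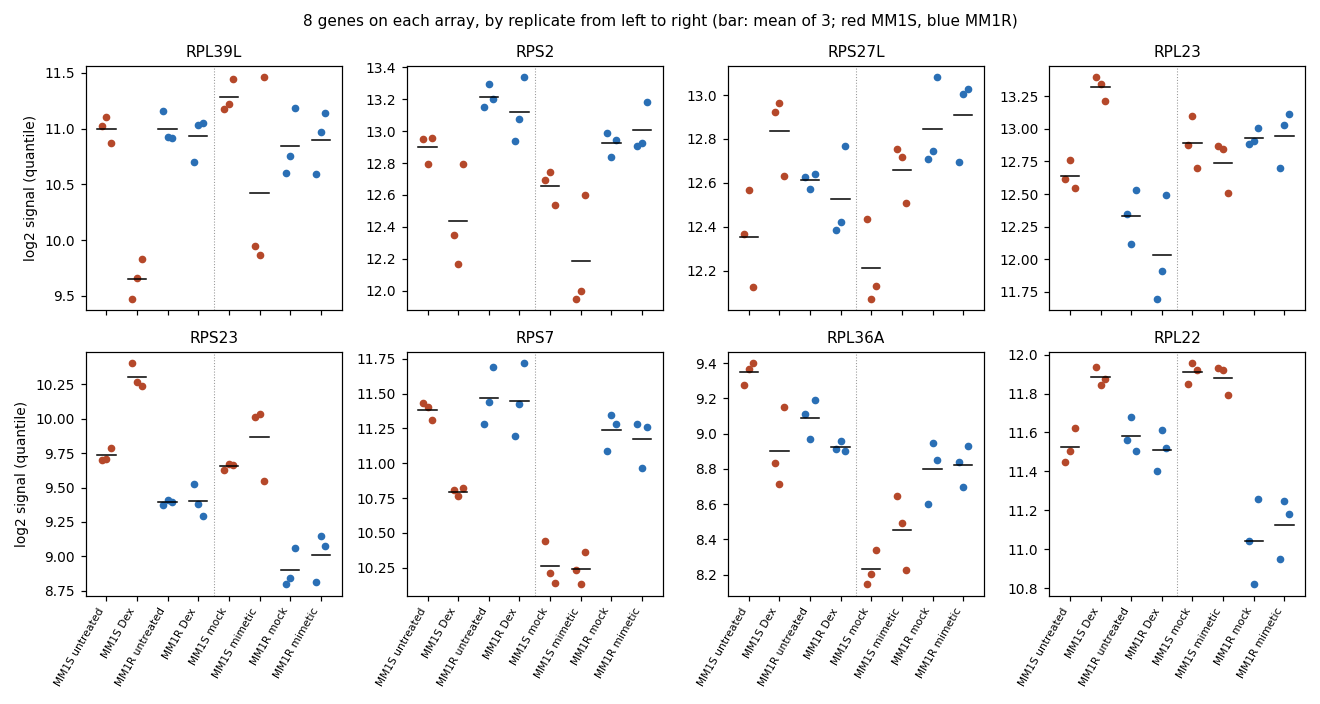
Quantile-normalized log2 signal of 8 genes on each of the 24 arrays, with replicates 1 to 3 from left to right in each group, the mean as a bar, MM1S in red, MM1R in blue, and a dotted line between the Dex and the transfection experiment. RPL39L is lowest in Dex treated MM1S cells and in mimetic replicates 1 and 2, and RPS7 is lowest in the mock and mimetic groups of MM1S.

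Among the 40S proteins, RPS7, a Diamond-Blackfan anaemia gene whose protein also binds MDM2, read 11.43, 11.41 and 11.31 untreated and 10.81, 10.76 and 10.82 with Dex. It fell by 0.58 ± 0.12 (adjusted p = 0.0014, limma) without overlap, and its second probe read -0.52 (adjusted p = 0.0041). RPS2, which lies at the mRNA entry channel, fell from 12.95, 12.79 and 12.96 to 12.35, 12.16 and 12.79, a change of -0.47 ± 0.13 (adjusted p = 0.010, limma). The arrays were just apart, and without Dex replicate 2 the change of -0.33 did not pass (adjusted p = 0.091, limma). In the large subunit RPL36A fell from 9.28, 9.37 and 9.40 to 8.83, 8.71 and 9.15 (-0.45 ± 0.11, adjusted p = 0.0051, limma). Without normalization between arrays neither RPS2 (-0.31, adjusted p = 0.078) nor RPL36A (-0.30, adjusted p = 0.087) passed.

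The members that rose came from both subunits. RPL23, a 60S protein that can also bind MDM2, read 12.62, 12.76 and 12.55 untreated and 13.39, 13.35 and 13.21 with Dex, a rise of 0.68 ± 0.15 (adjusted p = 0.0017, limma). RPS23, a protein of the decoding centre, rose from 9.70, 9.71 and 9.79 to 10.41, 10.27 and 10.24 (0.57 ± 0.097, adjusted p = 0.00017, limma). RPS28 rose from 12.82, 13.03 and 12.996 to 13.44, 13.50 and 13.52 (0.53 ± 0.11, adjusted p = 0.0015, limma). None of these 3, named for their large rise, overlapped between the groups, and the share of all genes without overlap is not given here. RPS27L, the paralog of RPS27 and known as a p53 target, rose by 0.49 ± 0.12 (adjusted p = 0.0052, limma). RPS27 itself, a bright member where RPS27L is not, read 0.0014 ± 0.063 (95% interval -0.13 to 0.13). RPL7 rose by 0.49 ± 0.15 (adjusted p = 0.027, limma), but its call was lost without untreated replicate 1 or 3 or Dex replicate 1 or 2. RPL23A, RPL13A, RPL22, RPL30, RPL12 and RPS13 rose by 0.23 to 0.40. RPL5 and RPL11 of the 5S particle read 0.23 ± 0.12 (95% interval -0.014 to 0.48; adjusted p = 0.18, limma) and 0.0053 ± 0.070 (adjusted p = 0.97), and the stalk proteins RPLP1 and RPLP2 read 0.037 ± 0.066 and -0.068 ± 0.071.

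How many members rose depended on the scale. With each array centred on its median in place of quantile normalization, 36 members rose and 4 fell (50.7% and 5.63%, all genes 18.9% and 9.39%), with a median change of 0.27 against 0.063 for all genes and 0.096 for the 171 bright genes outside the family. Without normalization between arrays 39 rose and 2 fell (54.9% and 2.82%, all genes 21.3% and 6.86%), with a median of 0.32 against 0.11. On the quantile scale the bright genes outside the family had a median of -0.057, so that the members lay above these on each of the 3 scales. By subunit, 4 of 26 members of the 40S and 7 of 45 of the 60S rose on the quantile scale, and 2 fell in each. Of the 10 Diamond-Blackfan anaemia genes measured, 1 (RPS7) fell and 0 rose. Of the 42 members with the start tract 5 rose and 1 fell (median 0.080), and of the 18 without it 2 rose and 1 fell (median 0.11).

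Other lists of the pathway gave these counts in the fit on the quantile scale, where 14.3% of all genes rose and 13.5% fell. Of 14 further TOP mRNAs, EIF4B, EIF3H and EIF3F rose (0.39 ± 0.098, 0.31 ± 0.091 and 0.26 ± 0.092) and HNRNPA1 fell by 0.58 ± 0.15. Of 27 ribosome biogenesis genes 0 rose and 1 fell, and of 79 mitochondrial ribosomal protein genes 5 rose and 7 fell, with a median of -0.054. Of 9 regulators of TOP mRNAs and of MDM2 only DDIT4, an inhibitor of mTORC1, changed, with a rise of 5.43 ± 0.11 log2 units (adjusted p = 4.4e-18, limma). Of the markers tested here, 0 of 7 for plasma cells rose and 2 fell (median -0.20), the 1 erythroid and the 1 epithelial marker fell (-0.42 and -0.26), and the T cell (-0.089) and monocyte (-0.12) marker did not pass. The part of DDIT4 and of these markers in the members' values was not tested.

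**Figure D4:**
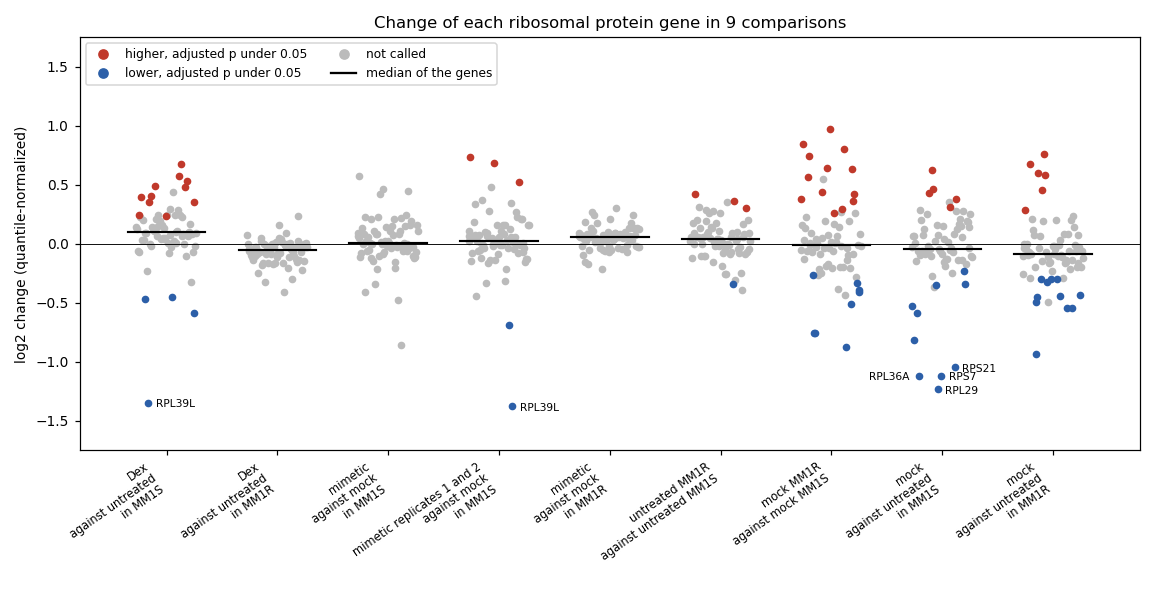
Log2 change of each ribosomal protein gene in 9 comparisons, on quantile-normalized values, coloured where the adjusted p (limma) is under 0.05, with the median as a bar. In MM1S cells RPL39L lies apart with Dex (-1.35) and with mimetic replicates 1 and 2 (-1.37), and no gene is called with Dex or the mimetic in MM1R cells.

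In MM1R cells, which per the study's description lack the receptor protein, Dex changed 0 of 71 members at an adjusted p under 0.05 (limma), and 0% of all genes rose and 0% fell. At an unadjusted p under 0.05 (limma), 5 of 71 members passed, against 432 of 11559 genes. The log2 changes of the members ran from -0.40 to 0.24. The median was -0.055 against -0.0049 for all genes, and 55 of 71 members read below 0, against 6009 of 11559 genes. Since the members share arrays and normalization, this count is a description. Over all probes, MM1R Dex replicate 1 differed from the other MM1R arrays of the experiment with SDs of 0.24 to 0.25 log2 units. Those others differed from each other with 0.14 to 0.22. The test of the difference between the Dex effects of the 2 lines called 9 members higher and 2 lower in MM1S than in MM1R cells (12.7% and 2.82%), against 8.70% and 8.78% of all genes. The higher ones were RPL23 (0.98 ± 0.21, adjusted p = 0.0026), RPL14 (0.85 ± 0.25, 0.29 on its second probe), RPL23A (0.58 ± 0.15), RPS27L (0.57 ± 0.17), RPS23 (0.56 ± 0.14), RPL13A, RPS28, RPL30 and RPL22, and the lower ones RPL39L and RPS7 (-0.56 ± 0.17, adjusted p = 0.035). A second probe was present for 3 of these members, read in the same direction in each, and was called in 1. With 1 array left out, 8 of the 12 fits lost RPS27L, 8 lost RPS7 and 5 lost RPL14, and with median centring the difference called 24 members higher and 1 lower (33.8% and 1.41%, all genes 10.7% and 6.08%). The 2 Dex effects were measured on separate arrays.

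The mimetic was compared with mock to ask what mir-150-5p changes without steroid. In MM1S cells 0 of 72 members passed in either direction (limma), against 0.145% of 12406 genes higher and 0.419% lower. At an unadjusted p under 0.05 (limma) 9 members and 2646 of the genes passed. Among the MM1S arrays of this experiment, 1 stood apart from its label. Over all probes, MM1S mimetic replicate 3 differed from replicates 1 and 2 with an SD of 0.32 and 0.32 log2 units and from the mock arrays with 0.16 to 0.21, while replicates 1 and 2 differed by 0.11. On the members alone the same SDs were 0.28, 0.27, 0.16 to 0.21 and 0.11.

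RPL39L showed this most clearly. It read 11.18, 11.22 and 11.45 in mock and 9.95, 9.86 and 11.46 in mimetic treated MM1S cells, so that replicate 3 equalled the highest mock array. Over all 3 replicates the change was -0.86 ± 0.31 (95% interval -1.52 to -0.20; adjusted p = 0.15, limma). Over replicates 1 and 2, a comparison chosen after the arrays were seen, it was -1.37 ± 0.18 (adjusted p = 7.9e-05, limma), and its second probe read -1.28 (adjusted p = 0.00024). RPS2 behaved likewise, with 12.69, 12.74 and 12.53 in mock and 11.95, 11.9998 and 12.60 in mimetic treated cells, and over replicates 1 and 2 a change of -0.68 ± 0.12 (adjusted p = 0.00087, limma).

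In that comparison 3 members were higher and 2 lower (4.17% and 2.78%), against 9.57% and 9.74% of 12295 genes, a smaller share than the background. The higher ones were RPL34 (0.74 ± 0.16, adjusted p = 0.0038), RPL29 (0.68 ± 0.15, adjusted p = 0.0042) and RPS27L (0.52 ± 0.15, adjusted p = 0.023, limma). RPL34, a 60S protein whose second probe read 0.39 here, had 10.66, 10.33 and 10.20 in mock and 11.21, 11.07 and 10.65 in mimetic treated cells. RPL5 read 12.45, 12.53 and 12.41 in mock and 12.12, 12.15 and 12.11 in mimetic treated cells. Its arrays did not overlap, but over all 3 mimetic replicates its change of -0.34 ± 0.12 did not pass (adjusted p = 0.13, limma). The share of all genes without overlap is not given here. Of 7 plasma cell markers 5 were lower over replicates 1 and 2 (median -0.72), of 27 ribosome biogenesis genes 9 were higher and 0 lower, and DDIT4 was higher by 4.43 ± 0.29.

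In MM1R cells the mimetic changed 0 of 72 members (limma), as it did 0% of all genes in each direction. At an unadjusted p under 0.05 (limma) 4 members and 251 of 12406 genes passed. The log2 changes of the members ran from -0.22 to 0.30, with a median of 0.059. The MM1R arrays of this experiment did not group by label. Over all probes, mimetic replicate 1 differed from mock replicates 1 and 2 with SDs of 0.13 and 0.13 log2 units. From mimetic replicates 2 and 3 it differed with 0.21 and 0.25, and mimetic replicate 2 from mock replicate 3 with 0.13. The part of this in the spread within groups was not tested. The difference of the mimetic effects between the lines called 0 members and 0% of genes higher and lower over all arrays (limma). At an unadjusted p under 0.05 (limma) 4 members and 1607 of 12406 genes passed. Over MM1S mimetic replicates 1 and 2 it called RPL29 higher (0.74 ± 0.20) and RPL39L (-1.43 ± 0.25) and RPS2 (-0.76 ± 0.16) lower, that is 1.39% and 2.78% of members against 3.85% and 5.38% of genes. The Dex and mimetic comparisons use different control arrays.

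The lines were also compared without Dex or mimetic. Untreated MM1R against untreated MM1S cells gave 3 members higher and 1 lower of 71 (4.23% and 1.41%), against 5.23% and 4.26% of all genes. RPL13A, which can leave the ribosome to silence mRNAs in stimulated monocytes, read 12.62, 12.58 and 12.51 in MM1S and 12.93, 12.98 and 13.06 in MM1R cells (0.42 ± 0.083, adjusted p = 0.0028, limma). RPL4 (0.36 ± 0.092) and RPS4X (0.31 ± 0.085) were higher as well, and RPS23 was lower by -0.34 ± 0.097 (adjusted p = 0.034, limma). The calls of RPL4, RPS4X and RPS23 were lost when single untreated arrays were left out (RPL4 and RPS4X without MM1R replicate 1 or MM1S replicate 1 or 3, RPS4X also without MM1R replicate 2, RPS23 without any 1 of the 6). RPL39L was level in the 2 untreated lines (0.00014 ± 0.12, 95% interval -0.25 to 0.25).

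Between the mock groups the lines differed more. There 13 members were higher and 8 lower in MM1R than in MM1S cells (18.1% and 11.1% of 72), against 15.3% and 17.7% of 12406 genes. RPS7 read 10.44, 10.21 and 10.14 in mock MM1S and 11.09, 11.34 and 11.28 in mock MM1R cells (0.97 ± 0.14, adjusted p = 0.0002, limma), and its second probe gave 0.91. RPL34 (0.84 ± 0.17), RPS21 (0.80 ± 0.17), RPL14 (0.74 ± 0.19) and RPL29 (0.65 ± 0.18) were higher too, though for RPL34 the second probe read -0.81 (adjusted p = 0.0080, limma) and its direction is not settled. A second probe was present for 10 of the called members. It read in the same direction in 9, of which 3 were called, and was opposite and called in 1. RPL22, a 60S protein whose gene is deleted in part of T cell leukaemias, read 11.85, 11.96 and 11.92 in mock MM1S and 11.04, 10.82 and 11.26 in mock MM1R cells (-0.87 ± 0.14, adjusted p = 0.00034, limma). RPS23 (-0.76 ± 0.15), RPL21 (-0.75 ± 0.13), RPL26 (-0.51 ± 0.11) and RPS6 (-0.40 ± 0.11), the substrate of S6 kinase, were lower. The call of RPL29 was lost without MM1R mock replicate 2 and that of RPS6 without MM1R mock replicate 1 or 2. With median centring RPL14 (0.46) and RPL29 (0.34) no longer passed, 6 members were higher and 11 lower (8.33% and 15.3%, all genes 6.16% and 27.6%, shift of all genes -0.12). Without normalization 1 was higher and 23 lower (1.39% and 31.9%, all genes 2.31% and 44.9%, shift -0.28).

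On the quantile scale the families around the ribosome split in this comparison, where 15.3% of all genes were higher and 17.7% lower. Counts of these lists on the other scales are not given here. Of 79 mitochondrial ribosomal protein genes 37 were higher and 6 lower in mock MM1R cells (median 0.31), and of 27 ribosome biogenesis genes 11 were higher and 0 lower (median 0.17). Of 14 further TOP mRNAs 0 were higher and 7 lower (median -0.30), among them EIF4B (-0.82 ± 0.13), EIF3E (-0.53 ± 0.15) and EEF1G (-0.43 ± 0.090). The 72 ribosomal protein genes had a median of -0.0070, and all genes one of -0.0066. With the start tract 8 of 42 were higher and 7 lower, and without it 5 of 19 and 1.

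**Figure D5:**
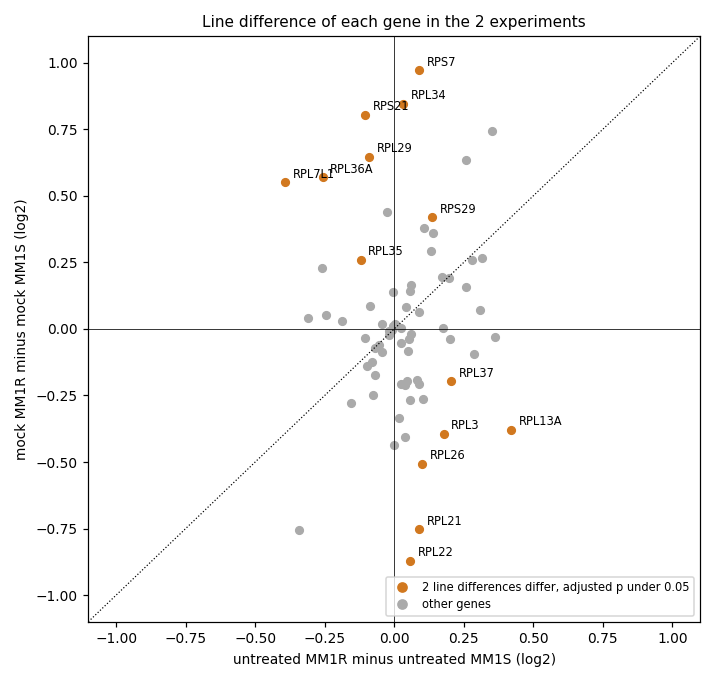
Log2 difference between MM1R and MM1S of 71 ribosomal protein genes in the untreated arrays (horizontal axis) and in the mock arrays (vertical axis), with the dotted line of equality; the 14 genes whose 2 differences differed (adjusted p under 0.05, limma, 24 arrays) are named. On the mock axis RPS7 (0.97), RPL34 (0.84) and RPS21 (0.80) lie far above 0 and RPL22 (-0.87) and RPL21 (-0.75) far below it, while all 5 lie near 0 on the untreated axis.

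The line by experiment term, fitted over all 24 arrays and added after the data were seen, called 8 members higher and 6 lower (11.1% and 8.33%), against 8.81% and 10.1% of 13283 genes. The higher ones were RPL7L1 (0.94 ± 0.28, 0.39 on its second probe), RPS21 (0.91 ± 0.21), RPS7 (0.88 ± 0.19), RPL36A (0.83 ± 0.17), RPL34 (0.81 ± 0.20, -0.14 on its second probe), RPL29, RPL35 and RPS29, of whose 4 probes the dimmest read -0.74 (adjusted p = 0.018, limma). The lower ones were RPL22 (-0.93 ± 0.16), RPL21 (-0.84 ± 0.19), RPL13A (-0.80 ± 0.19), RPL26, RPL3 (0.066 on its second probe) and RPL37. Since each experiment is 1 block of arrays, electroporation and any other difference between the experiments cannot be told apart.

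Mock against untreated cells of the same line gave the changes behind it. In MM1S cells 5 members were higher and 10 lower (6.94% and 13.9%), against 15.5% and 13.7% of all genes, and 4 of the lower ones passed 2-fold. A second probe was present for 6 of the called members, read in the same direction in each, and was called in 3. RPL29 went from 10.16, 10.26 and 10.10 to 8.88, 8.96 and 8.99 (-1.23 ± 0.18, adjusted p = 2.3e-05, limma), with -1.27 on its second probe. RPL36A went from 9.28, 9.37 and 9.40 to 8.14, 8.20 and 8.34 (-1.12 ± 0.12, adjusted p = 8.6e-07). RPS7 changed by -1.12 ± 0.13 (adjusted p = 2.4e-06) and RPS21, a small 40S protein, from 11.25, 11.14 and 11.06 to 9.93, 10.34 and 10.06 (-1.05 ± 0.15, adjusted p = 1.7e-05). RPL34 changed by -0.81 ± 0.14. The arrays of these 5 genes, picked by the size of their fall, did not overlap between the groups. The share of all genes without overlap is not given here. RPL34 lost its call with median centring (-0.33, adjusted p = 0.10, limma), and its second probe read -0.16. Higher in mock were RPL7 (0.63 ± 0.16), RPS28 (0.47 ± 0.12), RPL5 (0.43 ± 0.12), RPL22 (0.38 ± 0.11) and RPL37 (0.31 ± 0.094). RPL22 lost its call without untreated replicate 1 or mock replicate 2, and RPL37 without untreated replicate 2 or 3 or mock replicate 1.

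In MM1R cells 6 members were higher and 11 lower in mock than in untreated arrays (8.33% and 15.3%), against 9.37% and 9.03% of all genes, and none passed 2-fold. A second probe was present for 5 of the called members, read in the same direction in 3, and was called in 1 of these. RPL21 went from 12.41, 12.24 and 12.91 to 11.47, 11.71 and 11.58 (-0.93 ± 0.14, adjusted p = 1.8e-05, limma). RPL26 (-0.54 ± 0.14), RPL22 (-0.54 ± 0.11), RPS23 (-0.49 ± 0.12) and RPL4 (-0.45 ± 0.098) were lower too. RPS28 was higher, at 12.74, 12.45 and 12.92 untreated and 13.26, 13.52 and 13.62 in mock (0.76 ± 0.12, adjusted p = 3.2e-05), as it was in MM1S cells. RPL14 (0.68 ± 0.20), RPL23 (0.60 ± 0.15), RPL7L1 (0.58 ± 0.20), RPL7 (0.46 ± 0.16) and RPL11 (0.28 ± 0.080) were also higher, but the calls of RPL14, RPL7L1 and RPL7 were lost without single arrays (RPL14 and RPL7L1 without untreated replicate 1 or 2 or mock replicate 2, RPL7L1 also without mock replicate 1, and RPL7 without MM1R untreated replicate 1 or 2, any 1 of the 3 MM1R mock arrays or MM1S untreated replicate 1 or 2), RPL23 lost its call without untreated replicate 2, and the second probe of RPL7L1 read -0.032. On the quantile scale, 37 of the 79 mitochondrial ribosomal protein genes were lower and 4 higher in mock MM1S cells, against 1 and 4 in MM1R cells. Of all genes, 13.7% were lower and 15.5% higher in MM1S, and 9.03% and 9.37% in MM1R cells.

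The scale decides the balance in both lines. With median centring 37 members were higher and 4 lower in mock MM1S cells (51.4% and 5.56%), where 43.2% of all genes were higher and 2.93% lower and all genes shifted by 0.21. In mock MM1R cells 11 were higher and 1 lower (15.3% and 1.39%, all genes 13.5% and 2.73%, shift 0.058). Without normalization 59 were higher and 3 lower in MM1S cells (81.9% and 4.17%), where 73.1% of all genes were higher and 0.369% lower with a shift of 0.42, and 7 and 1 in MM1R cells (9.72% and 1.39%, all genes 7.41% and 1.83%). RPL26, RPL22, RPS23 and RPL4 kept their sign in MM1R cells but lost their calls with median centring (-0.34, -0.35, -0.33 and -0.24) and without normalization.

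Over the 10 comparisons of the design 40 of the 72 members were called at least once, 19 of the 47 bright and 21 of the other 25 members, and 32 never. The share of all genes called at least once is not given here, so these counts have no background beside them. RPL22 and RPS23 were called in 5 comparisons each, and RPL13A, RPS28 and RPS7 in 4. RPS28 was higher in each of its 4. The stalk proteins RPLP1 and RPLP2 were called in none, and RPLP1 kept group means between 14.58 and 14.78. These comparisons share control arrays and are not independent.

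The paralogs are set beside the genes they resemble. RPS27L had group means from 12.21 in mock MM1S to 12.91 in mimetic treated MM1R cells and was called in 3 comparisons. RPS27 stayed between 14.58 and 14.77 and was called in none. RPS27, RPL26 and RPL39 are bright members, and RPS27L, RPL26L1 and RPL39L are not. Group means spanned a median of 0.28 log2 units in bright and 0.87 in other members. The part of signal level in these contrasts was not tested. RPL26L1 was higher in mock MM1R than in mock MM1S cells (0.44 ± 0.13, adjusted p = 0.016, limma), where RPL26 was lower by -0.51. RPL3L, the striated muscle form of RPL3, and RPL22L1 had probes at 6.99 and 6.97 before normalization, over background on 1 and 0 arrays. RPL10, a core 60S protein, had 2 probes that both missed the detection rule, the brighter one being over background on 1 array, and its level is not measured here.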

How the data were processed

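RNA of 24 samples was hybridised to Illumina HumanHT-12 arrays. The authors used beadarray to read the bead intensities, then quantile normalization and limma 3.14.1. The log2 intensities deposited for each array precede normalization and come with the detection p-value that the authors deposited for each probe. A deposited table of quantile-normalized log2 intensities served as an alternative. Read depth does not apply to arrays, and 3 arrays per group set the precision. Slides and scan dates are not given in the sources used here.

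The log2 values of the 24 arrays were quantile normalized here with limma 3.58.1 (R 4.3.3), without background correction. The platform annotation gives 1 symbol to 30107 of 47224 probes, several to 8 and none to 17109, and 4 probes with a missing value were dropped. A fit used the probes detected (p under 0.05) on 3 or more of its arrays, which were 21486 for the Dex experiment, 23377 for the transfection experiment and 26277 over 24 arrays. Each experiment was fitted with its 4 groups together (lmFit, eBayes with trend), and mock against untreated over all 24 arrays. Benjamini-Hochberg adjustment ran over all probes of a fit, with calls at an adjusted p under 0.05. Background shares count the brightest probe of each gene. Replicates are separate experiments, and p-values measure the spread between these arrays. The procedure was tested on simulated data. Plots used matplotlib 3.10.9 and Python 3.11.15.

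Named are, per comparison, the 5 called members with the largest rise and the 5 with the largest fall, the paralogs, RPLP1, RPLP2, RPL5 and RPL11, the 3 brightest and 3 dimmest members, those that missed the detection rule, and up to 3 genes of another list by adjusted p. Further called members and EIF3F were named after their values were seen. The comparison without MM1S mimetic replicate 3 and the line by experiment term were also added after the data were seen. Some genes of the family are not reported here. The members and lists were chosen with earlier results of these data known. Alternatives were other normalizations, a background correction, filters, fits, array weights, replicate blocks, thresholds, probes, and leaving out each array.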

Additional observations from a re-analysis of the deposited data

Results flagged for a closer look

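The Dex effects of MM1S and MM1R cells differed in 11 ribosomal protein genes by the interaction term (limma, adjusted p under 0.05), as the log2 effect in MM1S minus that in MM1R cells. The difference was 0.98 for RPL23, 0.85 for RPL14, 0.58 for RPL23A, 0.57 for RPS27L, 0.56 for RPS23, 0.51 for RPL13A, 0.51 for RPS28, 0.49 for RPL30, 0.43 for RPL22, -0.56 for RPS7 and -1.28 for RPL39L. Of these, RPL14 did not pass in the MM1S arm alone (0.44 ± 0.18, adjusted p = 0.082, limma) and read -0.40 ± 0.18 in MM1R cells. With 1 of the 12 arrays left out, RPS27L and RPS7 lost their calls in 8 fits each and RPL14 in 5 (0.60 to 0.99, highest adjusted p 0.074, limma). For the mimetic the interaction term called 0 members over all arrays (limma, 4 members and 1607 of 12406 genes at an unadjusted p under 0.05). Groups of 3 arrays are too small for a test of single outlying arrays.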

How the results depend on the processing

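Of 50 named results, other settings left 514 values on the same side of the threshold and in the same direction, took 65 out of the calls and reversed 2, both on the second probe (RPL34 between the mock lines, -0.81, and RPL7L1 in mock MM1R cells, -0.032). Counts are given as members higher and lower, and where 1 direction stands alone the count of the other is not given here. With median centring they were 36 and 4 for Dex in MM1S cells, 24 and 1 for the difference of Dex effects, 5 and 0 for the untreated lines, 6 and 11 for the mock lines, 37 and 4 for mock in MM1S and 11 and 1 for mock in MM1R cells. Without normalization they were 39 and 2, 19 and 1, 9 and 0, 1 and 23, 59 and 3, and 7 and 1. With a fold over 1.5 they were 1 and 1, 2 and 1, 0 and 0, 6 and 3, 1 and 5, and 3 and 1. On second probes, which at most 33 members have, they were 5 and 2 for Dex in MM1S cells. There were also 4 higher for the difference, 1 higher for the untreated lines and 5 lower for the mock lines. Mock gave 3 higher in MM1S and 2 and 1 in MM1R cells. Members that are not bright were 24 in the Dex fit and 25 in the others. They gave 7 and 4 for Dex in MM1S cells, 1 and 1 for the untreated lines and 8 and 3 for the mock lines. Mock gave them 4 and 6 in MM1S and 4 and 4 in MM1R cells. With Dex in MM1S cells 29.2% of them rose and 16.7% fell, against 8.51% and 0% of the 47 bright members. Fits of only the groups compared gave 20 and 5 for Dex in MM1S, 6 and 2 for the untreated lines and 10 higher for mock in MM1S cells. Fitting the 24 arrays together gave 3 and 1 for the difference of Dex effects, 2 and 1 for the mimetic in MM1S cells and 1 and 0 for the untreated lines. Without a filter on dim probes 1 was lower for the difference of Dex effects and 0 for the untreated lines. Array weights gave 10 and 6 for the mimetic in MM1S cells, 3 and 4 for its difference between the lines, 5 and 2 for the untreated lines, 17 lower for the mock lines and 12 higher for mock in MM1S cells. The share of all genes called is not given here for the fold limit, second probes, fits, filter and array weights. Those counts therefore have no background beside them. The cause of the changes in counts was not tested.

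With 1 array left out the counts ran from 7 to 14 and 3 to 5 for Dex in MM1S cells (7 without MM1S untreated replicate 3), from 5 to 12 and 1 to 3 for the difference of Dex effects (5 without MM1S untreated replicate 1, and 1 lower without any of 8 arrays), from 0 to 3 and 0 to 2 for the mimetic in MM1S cells and 0 to 1 and 0 to 2 for its difference between the lines (0 in each fit that kept MM1S mimetic replicate 3). They ran from 1 to 4 and 0 to 2 for the untreated lines (1 higher without MM1R replicate 1 or MM1S replicate 1 or 3, 0 lower without any 1 of the 6 untreated arrays, 2 lower without MM1R Dex replicate 1), from 8 to 15 and 6 to 13 for the mock lines (8 without MM1R mock replicate 2, 13 without MM1R mock replicate 3), from 4 to 6 and 10 to 12 for mock in MM1S, and from 1 to 6 and 8 to 13 for mock in MM1R cells (1 without untreated replicate 2, 2 without mock replicate 2, 3 without untreated replicate 1). For Dex and the mimetic in MM1R cells they stayed at 0. The share of all genes called is given above only for the fits without MM1S mimetic replicate 3, not for the others.

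The replicate numbers pair no samples by their source, and in no comparison did all 3 pairs correlate over 0.1, so that they share only a number, which titles and descriptions give differently for untreated MM1R cells. With the replicate block 1 member was lower with the mimetic in MM1S cells under each numbering, and the other counts stayed within 1.5 times. Signal limits RPL10, RPL10L, RPL3L and RPL22L1, which lay at or near background.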
